A study of Drosophila melanogaster with 6 samples.

Results

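The Greek-letter trypsins of Drosophila melanogaster are serine protease genes that lie side by side on chromosome arm 2R. The 10 members described here are alphaTry, betaTry, gammaTry, deltaTry, epsilonTry, zetaTry, etaTry, thetaTry, iotaTry and lambdaTry. They were looked up by their current symbols among 15682 genes in the count tables. All 10 were found by their FlyBase identifiers. kappaTry also carries a Greek-letter symbol and lies in the same stretch. It is not in the chosen list, so statements about the members leave it out, and it is described apart. Levels were measured by RNA-seq in dissected midguts of virgin female and virgin male flies of the strain w1118, both 15 days old and both reared at 29 °C, with no treatment named in the labels. There were 3 libraries from females and 3 from males, and each library pooled 30 midguts. Totals per library ran from 23825935 to 33278485 counts in females and from 30600544 to 38406746 in males.

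Trypsins cut proteins after lysine and arginine. They are made as inactive precursors by the enterocytes, the absorptive and secretory cells of the midgut, and are released into the gut lumen, where they digest dietary protein together with chymotrypsin-like proteases and carboxypeptidases. The members of this cluster arose by duplication. alphaTry and betaTry are close copies of each other, and so are gammaTry, deltaTry and their unnamed neighbours CG30031 and CG30025.

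In the Ensembl annotation the stretch from lambdaTry to iotaTry held 14 protein-coding genes, and 13 of them were trypsin genes. The order was lambdaTry, kappaTry, zetaTry, etaTry, thetaTry, alphaTry, epsilonTry, betaTry, gammaTry, CG30031, CG30025, deltaTry, CG13202 and iotaTry. Of the 13 trypsin genes, 8 lay on the minus strand and 5 on the plus strand. Every member was annotated with a single exon, of 810 bases in gammaTry and deltaTry and up to 1071 bases in betaTry. Among the members, deltaTry alone shared annotated exon sequence with another gene, 15 bases at its end with CG13202 on the opposite strand. CG13202 had 48, 76 and 48 counts in females and 83, 34 and 86 counts in males, below the 132 to 342 counts of deltaTry in every library.

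In the deposited counts the members covered a very wide range, from the gene with the highest level per exon length to a gene with a single count. The low end holds near-identical copies, gammaTry and deltaTry, whose reads may be dropped or misplaced, as described below. Their values and ranks are those of the counts and do not show how much RNA each copy makes. Levels between genes are compared as RPKM, which here means CPM, the counts scaled to library size with edgeR's TMM factors, divided by the exon length in kilobases. The exon length was not corrected for sequence shared between copies. alphaTry ranked 1 among 15002 genes with a known exon length in females and in males. betaTry ranked 4 in females and 3 in males, epsilonTry 23 and 53, and thetaTry 67 and 83. deltaTry ranked 3248 in females and 4824 in males.

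On the RPKM scale, the level of alphaTry was 33082 ± 5444 in females and 27774 ± 3179 in males, where the error is the SD over n = 3 libraries of a sex, as in all levels below. betaTry averaged 17252 ± 2288 in females and 14548 ± 1806 in males. epsilonTry followed with 4327 ± 155 RPKM in females and 1664 ± 370 in males. After these came thetaTry and lambdaTry, with 1613 ± 128 and 712 ± 60.6 RPKM in females and 1183 ± 60.7 and 660 ± 65.5 RPKM in males. In each sex, every library of each of these 5 genes stood above every library of the next.

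The lower part of the order differed slightly between the sexes. In females, iotaTry at 330 ± 15.5 RPKM stood above zetaTry at 267 ± 33.4, and their libraries did not overlap. In males, zetaTry averaged 309 ± 97.7 RPKM and iotaTry 259 ± 55.1, and here the libraries overlapped, with zetaTry above iotaTry in 2 of 3. etaTry had 140 ± 10.2 RPKM in females and 116 ± 16.9 in males. By its counts, deltaTry had 13.3 ± 2.55 RPKM in females and 6.27 ± 1.89 in males, far below etaTry in both.

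**Figure D1:**
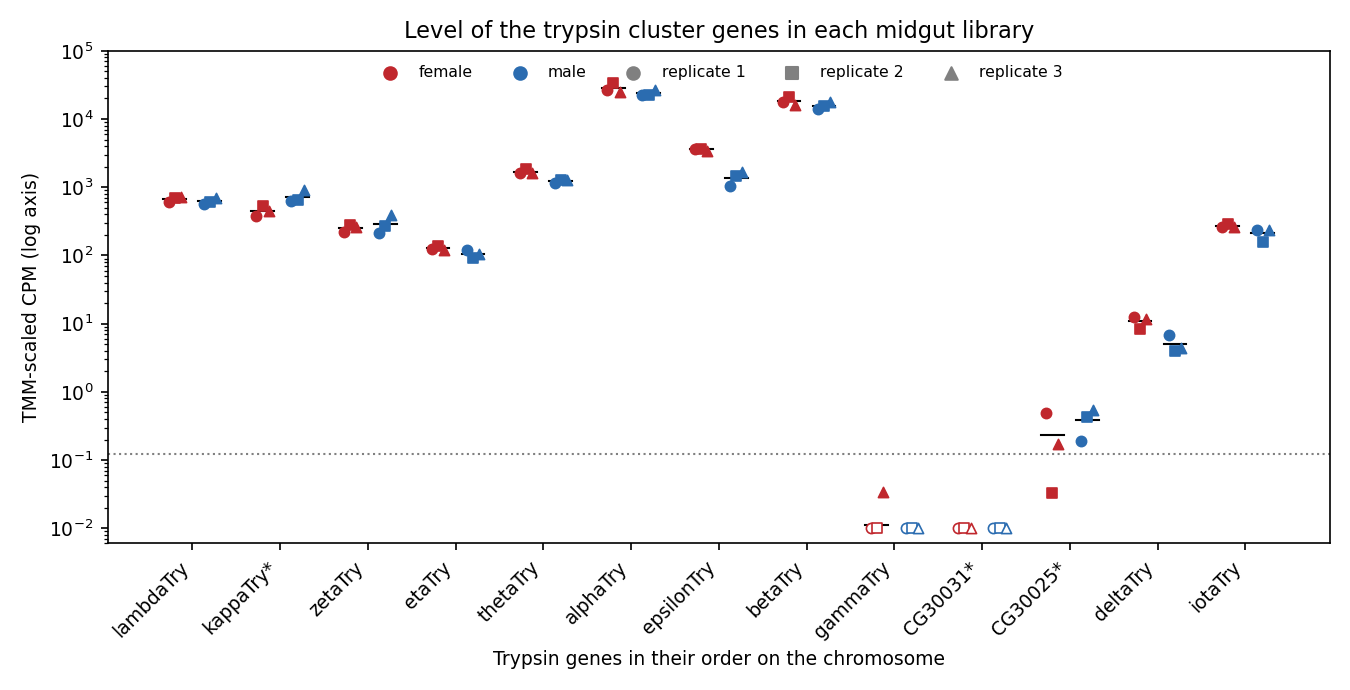
TMM-scaled CPM (log axis) of the 13 trypsin genes of the cluster in each library, in chromosome order, with females to the left of males and symbols for the replicates. Black bars are means of 3 libraries, open symbols at the bottom are counts of 0, the dotted line is the CPM of 3 counts in the shallowest library, and asterisks mark kappaTry, CG30031 and CG30025, which are not among the 10 genes. epsilonTry and deltaTry were the members whose sexes were furthest apart.

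gammaTry was close to silent in the deposited counts. It had 0, 0 and 1 count in females and 0 in each male library. A count of 3 stood for 0.0781 to 0.124 CPM, so any level of gammaTry below that could not be seen, and this floor covers counting error only. No fold change is given for it, and it was removed by the filter on low counts. Its neighbour CG30031 had 0 counts in all 6 libraries. CG30025 had 12, 1 and 5 counts in females and 6, 14 and 21 counts in males, and its log2 fold change of -0.78 ± 0.99 did not pass.

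These low values belong to the copies that resemble each other most. deltaTry, the copy of gammaTry with the most counts, had 297, 258 and 342 counts in females and 213, 132 and 168 in males. How the counting treated reads that match several genes is not given in the sources used here, and reads of near-identical genes may be dropped or misplaced. Its part in the low counts of gammaTry, CG30031, CG30025 and deltaTry was not tested, so these counts do not show how much RNA each copy makes. Summed over those 4 genes, the counts were 309, 259 and 348 in females and 219, 146 and 189 in males.

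The members together took 5.22%, 5.67% and 4.81% of all counts in female replicates 1 to 3 and 4.05%, 4.28% and 4.90% in male replicates 1 to 3. The sexes overlapped, since male replicate 3 lay above female replicate 3. alphaTry and betaTry supplied 87.5% ± 1.21 of the members' counts in females and 91.1% ± 0.427 in males. epsilonTry supplied 6.78% ± 0.762 in females and 3.17% ± 0.462 in males.

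The comparison of the sexes asked which of these trypsin genes female and male midguts express at different levels. epsilonTry and deltaTry were higher in females, and no member was called toward males. edgeR's quasi-likelihood test was run over 8941 genes with a threshold of 0.05 on the Benjamini-Hochberg adjusted p. It called 2 of the 9 tested members toward females and 0 toward males, and 7 missed the threshold. Over all tested genes, edgeR called 9.39%, made up of 3.87% toward females and 5.53% toward males. DESeq2 called 3 members toward females and limma-voom 2. Over all genes, DESeq2 called 552 of 8934 toward females and limma-voom 358 of 8941. In either direction they called 13.5% and 9.41% of genes. Toward males, DESeq2 and limma-voom also called 0 members, and edgeR found 0 at an unadjusted p under 0.05. The median log2 fold change, female over male, was 0.26 over the 9 tested members and -0.02 over all genes tested.

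epsilonTry, which lies between alphaTry and betaTry, showed the clearest difference. It had 3688, 3640 and 3446 CPM in females, against 1049, 1439 and 1655 CPM in males. The female libraries were close together and all lay above every male library, among which male replicate 1 was lowest. Its log2 fold change was 1.38 ± 0.19 (SE), a 2.60-fold higher level in females with a 95% interval of 1.95 to 3.47 (edgeR adjusted p = 0.00122). The coefficient of variation between libraries was 3.58% in females and 22.2% in males.

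The call of epsilonTry held in every alternative tried. Leaving out each library in turn gave log2 fold changes of 1.23 to 1.53, with edgeR adjusted p of at most 0.00896.

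deltaTry, measured at a much lower level, was the other member that was higher in females. It had 12.3, 8.43 and 11.6 CPM in females, against 6.84, 4.02 and 4.38 CPM in males. The sexes did not overlap, but female replicate 2 and male replicate 1 came near each other. Its log2 fold change was 1.09 ± 0.25, a 2.12-fold higher level in females with a 95% interval of 1.44 to 3.13 (edgeR adjusted p = 0.0201). The call rested on single libraries. It ended on removing female replicate 1 (edgeR adjusted p = 0.0850), female replicate 3 (0.0781) or male replicate 2 (0.0967). With gammaTry, CG30031 and CG30025 added to it, the log2 fold change of the summed row was 1.01 ± 0.24, at an edgeR adjusted p of 0.0224.

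**Figure D2:**
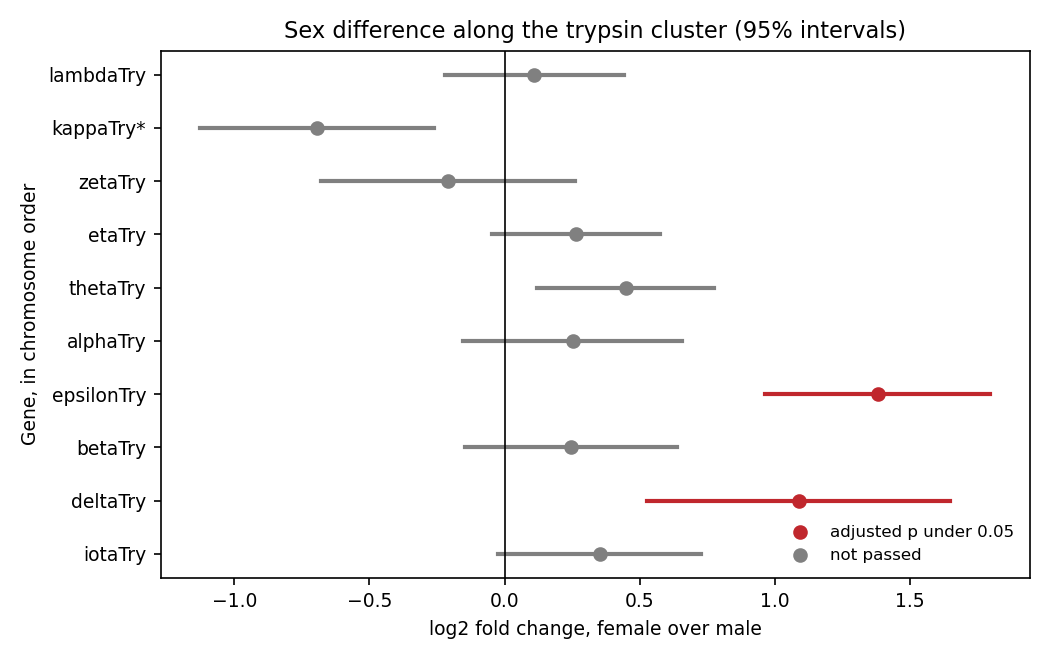
log2 fold change, female over male (horizontal axis), of the 9 tested members and kappaTry (asterisk) in chromosome order from top to bottom, with 95% intervals from edgeR. Red marks an adjusted p under 0.05, reached by epsilonTry at 1.38 and deltaTry at 1.09, and grey marks genes that did not pass, among them kappaTry at -0.69.

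alphaTry, the major trypsin gene, had 26966, 33695 and 24690 CPM in females, against 22528, 22097 and 27033 CPM in males. Male replicate 3 exceeded 2 of the female libraries, so the sexes overlapped. Its 95% interval ran from 0.900 to 1.58-fold, female over male (edgeR adjusted p = 0.516).

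betaTry, its close copy, had 18011, 21127 and 16294 CPM in females, against 13840, 15240 and 17662 CPM in males. Again male replicate 3 lay among the female libraries. The interval of its fold was 0.904 to 1.56, female over male (edgeR adjusted p = 0.512). Reads shared between alphaTry and betaTry could shift either value. Summed to a single row, they gave 0.25 ± 0.18 on the log2 scale, female over male, at an edgeR adjusted p of 0.519.

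thetaTry came closest to the threshold among the members that did not pass. It had 1616, 1843 and 1607 CPM in females, against 1165, 1267 and 1283 CPM in males, with no overlap. Its log2 fold change was 0.45 ± 0.15, or 1.36-fold with a 95% interval of 1.09 to 1.71 (edgeR adjusted p = 0.0923). DESeq2 called it higher in females at an adjusted p of 0.00576.

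iotaTry had 261, 285 and 264 CPM in females, against 238, 160 and 237 CPM in males. The female libraries were all above the males, among which male replicate 2 was lowest. On the log2 scale the difference was 0.35 ± 0.17, female over male, which did not pass (edgeR adjusted p = 0.274). etaTry had 123, 138 and 121 CPM in females, against 122, 91.2 and 105 CPM in males. Male replicate 1 stood between the female values, and the difference of 0.26 ± 0.14 on the log2 scale did not pass (edgeR adjusted p = 0.333).

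lambdaTry, at an end of the cluster, had the smallest fold change of the tested members. It had 612, 702 and 720 CPM in females, against 575, 614 and 697 CPM in males, a log2 fold change of 0.11 ± 0.15 with a 95% interval of -0.22 to 0.44 (edgeR adjusted p = 0.778). zetaTry was the only tested member with a negative log2 fold change, -0.21 ± 0.21. It had 218, 280 and 259 CPM in females, against 214, 269 and 394 CPM in males (edgeR adjusted p = 0.674). Male replicate 3 was the high value, and without it the log2 fold change was 0.06.

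In 4 of the 9 tested members, epsilonTry, deltaTry, thetaTry and iotaTry, all 3 female libraries lay above all 3 male libraries. In 0 members was it the reverse. Over all genes tested, 26.2% had sexes that did not overlap, 12.4% with females above and 13.8% with males above.

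kappaTry, which sits between lambdaTry and zetaTry and is not among the 10 genes, had a fold change in the other direction. It had 373, 532 and 444 CPM in females, against 620, 646 and 915 CPM in males, with no overlap. Its log2 fold change was -0.69 ± 0.20 (edgeR adjusted p = 0.0512), so it did not pass. It was called higher in males by DESeq2 (adjusted p = 0.00797), and by edgeR with library totals only (0.0185), with no filter beyond 1 count (0.0272) and with a filter of 5 CPM in 3 libraries (0.0435). Leaving out each library in turn gave edgeR adjusted p of 0.0461 to 0.217 for it.

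Counts relative to alphaTry within the same library do not depend on how libraries are scaled. By this measure betaTry and alphaTry kept a nearly fixed proportion. betaTry had 66.8%, 62.7% and 66.0% of the counts of alphaTry in females, against 61.4%, 69.0% and 65.3% in males, which is a coefficient of variation of 4.22% over the 6 libraries.

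For epsilonTry the proportion stood apart between the libraries of the sexes. It had 13.7%, 10.8% and 14.0% of the counts of alphaTry in females, against 4.66%, 6.51% and 6.12% in males. The lowest female library lay above the highest male library. The mean log2 ratio was 1.16 higher in females, with an exact two-sided permutation p of 0.1, the smallest that 3 against 3 can give. Adjusted over the 9 ratios compared it was 0.36, and no ratio could have passed in a design of this size.

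kappaTry had 1.39%, 1.58% and 1.80% of the counts of alphaTry in females, against 2.75%, 2.92% and 3.38% in males. These libraries did not overlap either, and the exact permutation p was again 0.1 (0.36 adjusted). The ratios of the other 6 genes, those of deltaTry, zetaTry, etaTry, thetaTry, iotaTry and lambdaTry to alphaTry, overlapped between the sexes. For deltaTry the ratio was 0.0456%, 0.0250% and 0.0471% in females, against 0.0303%, 0.0182% and 0.0162% in males (exact permutation p = 0.2).

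**Figure D3:**
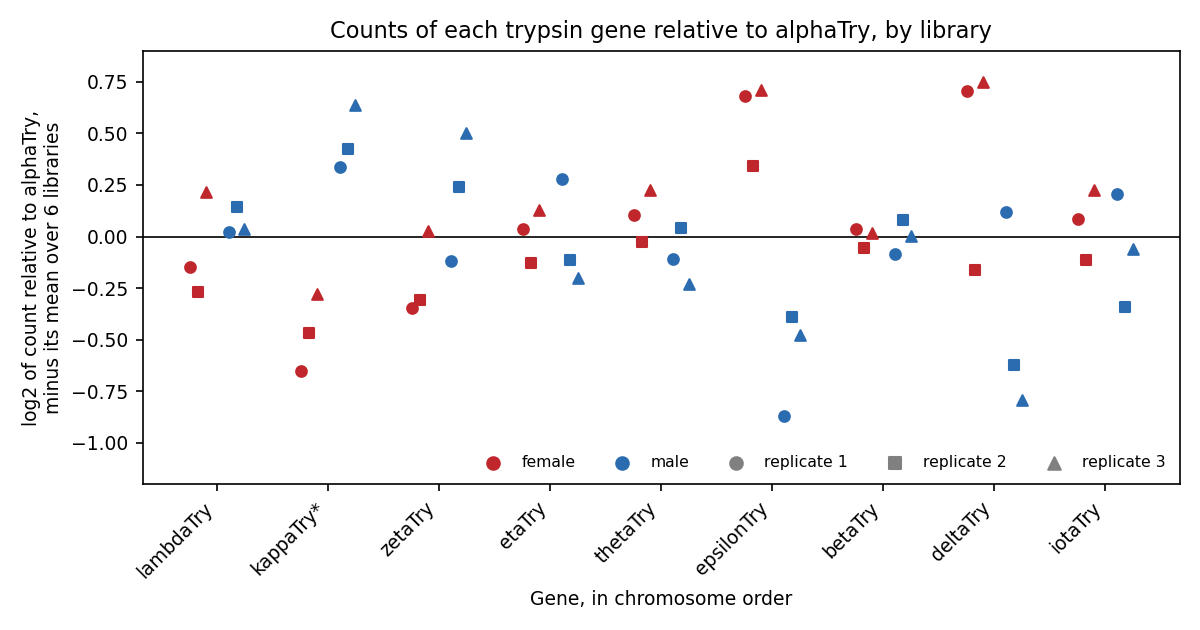
log2 of each gene's count divided by the count of alphaTry in the same library, minus the mean of that value over the 6 libraries (vertical axis), in chromosome order, with females to the left of males. betaTry stayed within 0.09 of its mean in all libraries, whereas the female and male libraries of epsilonTry, and of kappaTry (asterisk), stood on opposite sides of theirs.

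The members were also compared by how their levels moved over the 6 libraries, as the root mean square difference between profiles of log2 CPM, each centred on its mean. The most alike pair was alphaTry and betaTry, at 0.06. etaTry and iotaTry followed at 0.12. The least alike pair was deltaTry and zetaTry, at 0.83, and epsilonTry and zetaTry stood at 0.80.

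Outside the cluster, the gene whose profile was nearest to that of epsilonTry was CG8560, a predicted metallocarboxypeptidase gene, at a difference of 0.06 and higher in females by 1.38 on the log2 scale (edgeR adjusted p = 0.00107). The nearest to deltaTry was Art4, an arginine methyltransferase gene, at 0.12. The nearest to alphaTry was Ddrgk1 at 0.03, to betaTry ND-23 at 0.04, to thetaTry Ran at 0.05, to lambdaTry c12.2 at 0.03, to etaTry z at 0.04, to zetaTry Smn at 0.05 and to iotaTry CG17508 at 0.07. For the sum of the members the 3 nearest genes were CG12320, Cyp6a13 and ND-18, at 0.03 to 0.04. These are distances over 6 libraries and are given as a description.

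Other serine protease genes of the midgut gave a background for the members. For their counts, the share called over all tested genes was 3.87% toward females and 5.53% toward males. Of 11 other trypsin-like genes, 7 were tested, and the test called 1 toward females and 2 toward males, with 4 below the threshold. Those called were CG17571, higher in females (2182 ± 298 CPM in females, 1364 ± 234 in males, log2 0.68 ± 0.18, edgeR adjusted p = 0.0381), and Ser8 and Ser6, higher in males with log2 fold changes of -1.45 ± 0.18 and -0.89 ± 0.19. The 7 tested genes had a median log2 fold change of -0.78, which is the value of CG30025, and the summed level of the list overlapped between the sexes at 2756 to 3615 CPM in females and 2810 to 3705 CPM in males. Of 16 Jonah genes, which code for chymotrypsin-like proteases, 10 passed toward females, 0 toward males and 6 missed the threshold, with a median log2 fold change of 0.78. The Jonah genes with the smallest p were Jon99Fi, Jon74E and Jon65Aii, with log2 fold changes of 2.34, 1.68 and 1.46.

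Among regulators of midgut digestive genes and of regional identity, the test called 1 of 20 toward females and 1 toward males, a share close to the 9.39% called over all tested genes. The gene higher in females was sug, a transcription factor gene that responds to dietary sugar, at 176 ± 25.0 CPM in females and 62.2 ± 6.30 in males (log2 1.50 ± 0.15, edgeR adjusted p = 0.000154). The gene higher in males was Tk, which codes for the gut hormone tachykinin (log2 -0.47 ± 0.12, edgeR adjusted p = 0.0335). The third in order of p was lab, the homeobox gene of the acid-secreting copper cells (log2 0.56 ± 0.17, edgeR adjusted p = 0.0632). GATAe, the GATA factor gene needed for digestive gene expression in the midgut, averaged 178 ± 7.72 CPM in females and 188 ± 27.6 in males (edgeR adjusted p = 0.840).

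Marker genes showed which cells the pools held. Enterocyte markers were present in all libraries, among them mex1 at 233 ± 20.9 CPM in females and 229 ± 49.9 in males (edgeR adjusted p = 0.968). Of the 6 genes in that list, Amy-p, an amylase gene, passed toward males. Its log2 fold change, female over male, was -0.75 ± 0.20 (edgeR adjusted p = 0.0345). The other 5 did not pass, among them lab at 0.56 ± 0.17 and Myo31DF at -0.34 ± 0.14. The summed level of the list was 6056 to 8503 CPM in females and 10453 to 12028 CPM in males, without overlap. Amy-p alone averaged 5755 ± 1367 CPM in females and 9705 ± 877 in males. Of 10 stem cell, enteroblast and enteroendocrine markers found by symbol, 3 hormone genes were higher in males, CCHa2, Tk and CCHa1, and none in females. Over all tested genes, edgeR called 5.53% toward males and 3.87% toward females. The summed level of those 10 markers was 449 to 539 CPM in females and 662 to 812 CPM in males, without overlap. This list named 12, but esg and Dl did not match the gene names used. Dl is present under the symbol Delta and was also higher in males (log2 -1.03 ± 0.27, edgeR adjusted p = 0.0400). In bulk tissue, fewer cells of a type and less RNA per cell cannot be told apart.

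RNA of neighbouring tissues was present in small and unequal amounts. The summed level of 9 hemocyte and fat body markers was 55.5 to 291 CPM in females and 9.28 to 28.1 CPM in males, and He and Fbp1 were at 0. Female replicate 1 had the 291 CPM, against 63.9 and 55.5 CPM in female replicates 2 and 3. On average the yolk protein genes Yp1, Yp2 and Yp3 made up most of the sum in females. They had 64.3 ± 69.7, 27.5 ± 24.4 and 30.9 ± 30.1 CPM in females, against 1.62 ± 2.68, 0.741 ± 1.28 and 2.37 ± 0.936 CPM in males. In males the largest part was apolpp, a lipoprotein gene of the fat body, at 12.8 ± 10.5 CPM in females and 12.7 ± 6.21 in males. None of the 6 tested passed. The summed level of 8 ovary and male reproductive markers was 0 to 0.646 CPM in females and 0.0305 to 20.6 CPM in males. Male replicate 3 had the highest value, with at most 0.128 CPM in the other male libraries, and none of the 8 passed the filter for testing. That list named 10, but nos and vas did not match the gene names used and are not in the sum. Markers of visceral muscle and trachea summed to 409 to 1033 CPM in females and 577 to 1158 CPM in males, with 0 of 6 passing, Act57B, trh and Mlc2 having the smallest p. Those of Malpighian tubule, crop and hindgut summed to 5.50 to 12.2 CPM in females and 10.3 to 14.2 CPM in males, with 0 of 5 passing, Irk3, salt and byn having the smallest p. The part of these tissues in the values of the members was not tested.

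**Figure D4:**
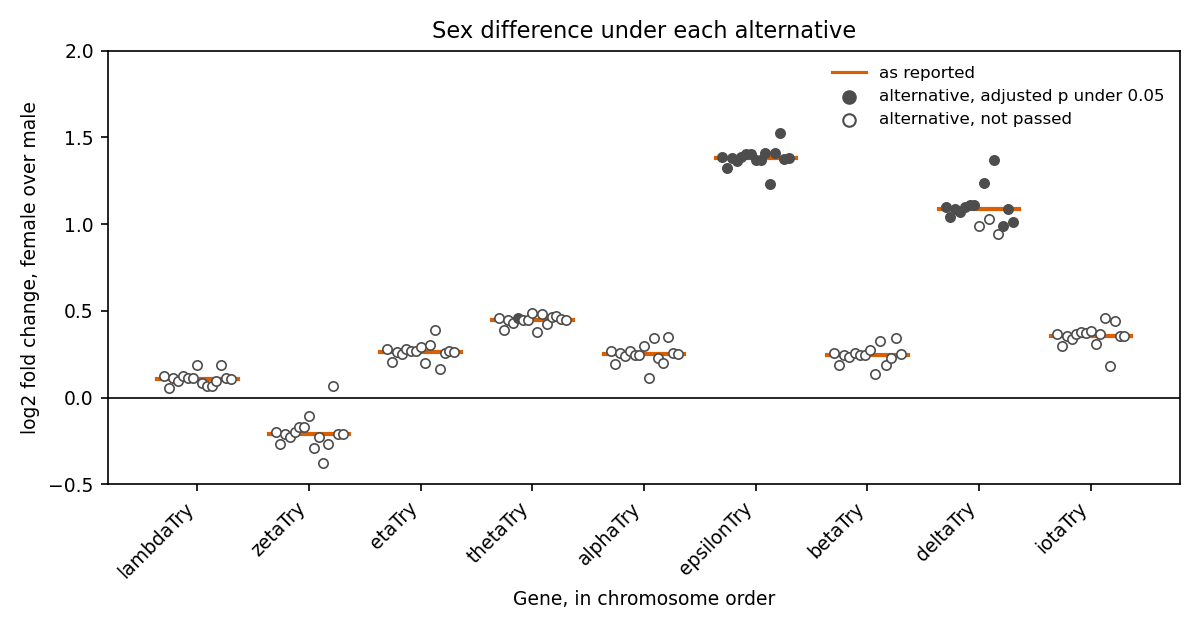
log2 fold change, female over male (vertical axis), of the 9 tested members in chromosome order under each alternative processing, with the reported value as an orange line. Filled points passed an adjusted p of 0.05 and open points did not. epsilonTry was called under all of its alternatives at 1.23 to 1.53, deltaTry under 12 of 15, and thetaTry under DESeq2 only.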

How the data were processed

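The authors deposited raw counts of reads by gene, a table for each library. The submitters' processing notes name TopHat2 2.0.11, HTSeq and the genome build dm3. Not given in the sources used here are the annotation release, the strand setting and what was done with reads matching several genes. Per the labels' protocols, libraries marked strand and were sequenced as paired reads of 100 bases. Symbols came from a gene name table (15002 of 15682 identifiers matched). Listed symbols not found in it, esg, Dl, btl, mondo, nos and vas, were left out of their lists. Gene order and exon lengths came from the Ensembl annotation of another build, so no coordinates are given.

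In R 4.3.3, filterByExpr (grouped by sex, minimum count 10, minimum total 15) and TMM scaling preceded the two-sided, robust quasi-likelihood fit of edgeR 4.0.16 on all 6 libraries, with sex as its only term. Intervals and standard errors derive from its F statistic. DESeq2 1.42.0 and limma 3.58.1 (voom) were alternatives, beside other scalings, other filters, a replicate block, the removal of each library in turn and the summing of copies, the last chosen after seeing the data. The members and lists were chosen with earlier results of these data known. Named genes are the members, the other cluster trypsins, genes overlapping them, the 3 genes of smallest p in each list, and nearest profiles. GATAe, mex1, He, Fbp1 and Delta were named after their values were seen. As the labels do not tie replicates to separate cultures, the spread behind each p-value is that of these pools and may be technical. No replicate pair agreed within sampling noise (chi-square over its degrees of freedom at least 29.8).

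The fit was tested on counts simulated for the female and male libraries, in which 200 of 8941 genes had a known change. It made 147 calls, 16 on genes without a change. Its recovery was 22% for changes of 1.5-fold, 50% for 2-fold, 94% for 4-fold and 96% for 8-fold.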

Additional observations from a re-analysis of the deposited data

How the results depend on the processing

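Over 15 alternatives, epsilonTry kept its direction and its call, with log2 fold changes of 1.23 to 1.53. deltaTry kept its direction at 0.94 to 1.37 and its call in 12; its value was 0.99 on leaving out female replicate 1, 1.03 without female replicate 3 and 0.94 without male replicate 2, and each time the number of members higher in females was 1 instead of 2. thetaTry passed with DESeq2 alone (log2 0.46). zetaTry ranged from -0.38 to 0.06 without a single library and turned positive without male replicate 3 (0.065). alphaTry, betaTry, etaTry, iotaTry and lambdaTry did not pass in any alternative run; without a single library the range was 0.11 to 0.35 for alphaTry. The number of all genes higher in females was 346, 552 with DESeq2 and 164 to 419 without a single library, and 1.5 times was exceeded without female replicate 1 (171), female replicate 3 (219) and male replicate 2 (164). The causes were not tested beyond the smaller number of libraries. With the replicate number as a block, epsilonTry had log2 1.40 (edgeR adjusted p = 0.00186) and deltaTry 1.11 (0.0134), and no call among the members changed. Deviations from the mean of each sex correlated at -0.16 to -0.09 between same-numbered libraries of the sexes. Between libraries of unlike number they correlated at -0.04 to 0.20. The numbers thus showed no pairing, and whether libraries shared a batch was not tested. Summing copies by sequence identity was not run, since sequences were not used here. As a row of its own, gammaTry, with 1 count, was fitted only with no filter beyond 1 count, and no fold change is given for it. Differences in gammaTry, CG30031 and CG30025 were not detectable at these counts, and the part of reads shared between copies was not tested.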
